A study of Mus musculus with 6 samples.

Results

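The S100 proteins are a family of small calcium-binding proteins, and 10 of their genes, S100a1, S100a4, S100a6, S100a8, S100a9, S100a10, S100a11, S100a13, S100a14 and S100a16, were followed here in cancer-associated fibroblasts (CAFs) of mouse colonic adenomas. The 10 genes were chosen by name out of the 49548 genes of the table, with their levels in these same libraries already known, so the values below describe these libraries and are no independent evidence about the family. The table holds 18 genes whose name starts with S100, and the other 8 are described after the 10. Transcript 3′ ends were sequenced in 6 libraries, of which 3 held GFP+ cells, called Col6a1+ CAFs, and 3 held Tomato+ cells, called Col6a1− CAFs.

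All libraries came from Col6a1-cre, Rosa26-mTmG mice on the C57/BL6 background. This reporter carries a membrane Tomato cassette that Cre excises to switch on GFP. GFP therefore marked cells with past Col6a1Cre activity, and Tomato all other sorted cells. All mice, at 8 to 10 weeks of age, had received the carcinogen azoxymethane (AOM) and then 3 cycles of 2.5% dextran sodium sulfate (DSS), which damages the colonic epithelium. Each library came from pooled tumors of 5 to 6 mice, dissociated and sorted as cells without the immune marker CD45, the endothelial marker CD31, the erythroid marker Ter119 and the epithelial marker EpCAM. Col6a1Cre is known from the study's earlier work to target both PDGFRα-high fibroblasts and perivascular cells. The study describes the Col6a1− cells as a fibroblast subset called trophocytes and most PDGFRα-low fibroblasts. Neither group is thus a single cell type.

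Levels are normalized counts, that is reads per gene divided by the authors' size factor of the library. Their sums were similar, from 3039152 to 3425249 per library. The number of genes with at least 1 count ranged from 14530 in Col6a1+ replicate 1 to 20511, and 2563809 to 4522548 reads were estimated for 4 of the libraries. Col6a1 itself had 861, 1287 and 1941 counts in the Col6a1+ CAFs and 182, 321 and 102 in the Col6a1− CAFs. The labels record past Cre activity and not this transcript, and several other fibroblast genes were higher in the same libraries. The fibroblast list (Col1a1, Col1a2, Col3a1, Dcn and 3 others) summed to 37600 to 41374 counts in Col6a1+ CAFs and to 6945 to 14082 in Col6a1− CAFs. Of its 7 genes 4 were higher in Col6a1+ CAFs at an adjusted p under 0.05. Dcn was not, and 2 of the others overlapped between the groups. The mural list, led by Rgs5, Mcam, Notch3 and Pdgfrb, reached 42545 to 91813 and 1173 to 2206, and all 8 of its genes were higher in Col6a1+ CAFs. Although EpCAM+ cells had been sorted out, the 12 epithelial markers were present in every library. They summed to 5915 to 6620 counts in Col6a1+ CAFs and to 20884 to 35328 in Col6a1− CAFs, and 9 of the 12 were lower in Col6a1+ CAFs at an adjusted p under 0.05. In every Col6a1− library the epithelial sum exceeded the fibroblast sum, though the lists differ in length. Levels in the Col6a1− CAFs are therefore not levels of fibroblasts alone.

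**Figure D1:**
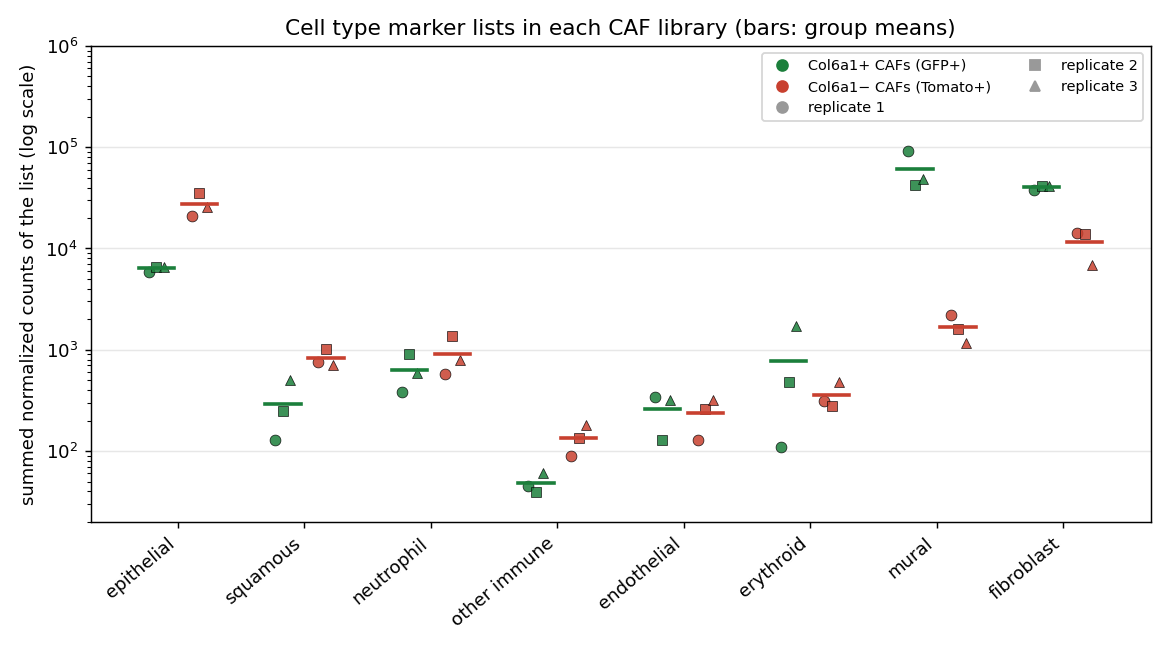
Summed normalized counts (log axis) of 8 lists of cell type markers in each library. Points are libraries, shapes are replicate numbers and bars are group means. The epithelial sums of the Col6a1− CAFs, from 20884, lie above those of the Col6a1+ CAFs, up to 6620, and the mural and fibroblast sums lie the other way.

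S100 proteins bind calcium through EF-hand motifs, change shape when they do, and then bind target proteins inside the cell. Most act as dimers. Several are also released by stressed or activated cells and act outside as alarmins, on the receptor RAGE (the product of Ager) and on Toll-like receptor 4. Most of the genes lie side by side within the epidermal differentiation complex, a region that also holds genes of the cornified envelope. S100A8 and S100A9 are best known from neutrophils and monocytes and from inflamed epithelium, S100A14 and S100A16 from epithelium, and S100A4 from fibroblasts and other motile cells, where it is also called FSP1.

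In the comparison of the CAF groups, 3 of the 10 genes were called at an adjusted p under 0.05 by limma over the 26402 genes with at least 1 count, namely S100a8, S100a9 and S100a14. All 3 were lower in Col6a1+ than in Col6a1− CAFs and none of the 10 was called higher. Over all genes tested 4.62% were called, 2.66% as higher and 1.96% as lower in Col6a1+ CAFs. The libraries of the 2 groups did not overlap for 7 of the 10 genes. S100a4 was the 1 gene with all Col6a1+ libraries on top, and S100a6, S100a8, S100a9, S100a10, S100a14 and S100a16 were the 6 with all of them below. Among all genes tested the groups did not overlap for 19.5%, with 7.91% higher and 11.6% lower in Col6a1+ CAFs. The median log2 fold change (Col6a1+ minus Col6a1−) was -1.19 over the 10 genes and -0.27 over all genes tested. Because the genes were selected on these same libraries, nothing is read from how these shares compare.

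The labels do not say whether libraries with the same replicate number came from the same pool of mice. Entering the numbers as pairs changed the calls, in a direction that depended on the filter. When the replicate number entered the model as a block, none of the 26402 genes passed by limma, although 4418 had an unadjusted p under 0.05. The smallest adjusted p of the blocked limma fit was 0.0612. Many genes tied at this value, among them S100a9, S100a14 and all 8 genes of the mural list. S100a8 had 0.0717. With the block and only the 13515 genes that averaged 10 counts or more, 6 of the 10 genes were called, S100a4 as higher and S100a8, S100a9, S100a10, S100a14 and S100a16 as lower. In that fit 13.7% of all genes were called, 7.26% higher and 6.44% lower. Without the block the same filter called 10.5% of all genes and 5 of the 10. By a looser criterion, an unadjusted p below 0.05 and a log2 fold change beyond 1 in either direction, 7 of the 10 genes passed, as did 14.7% of all genes.

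**Figure D2:**
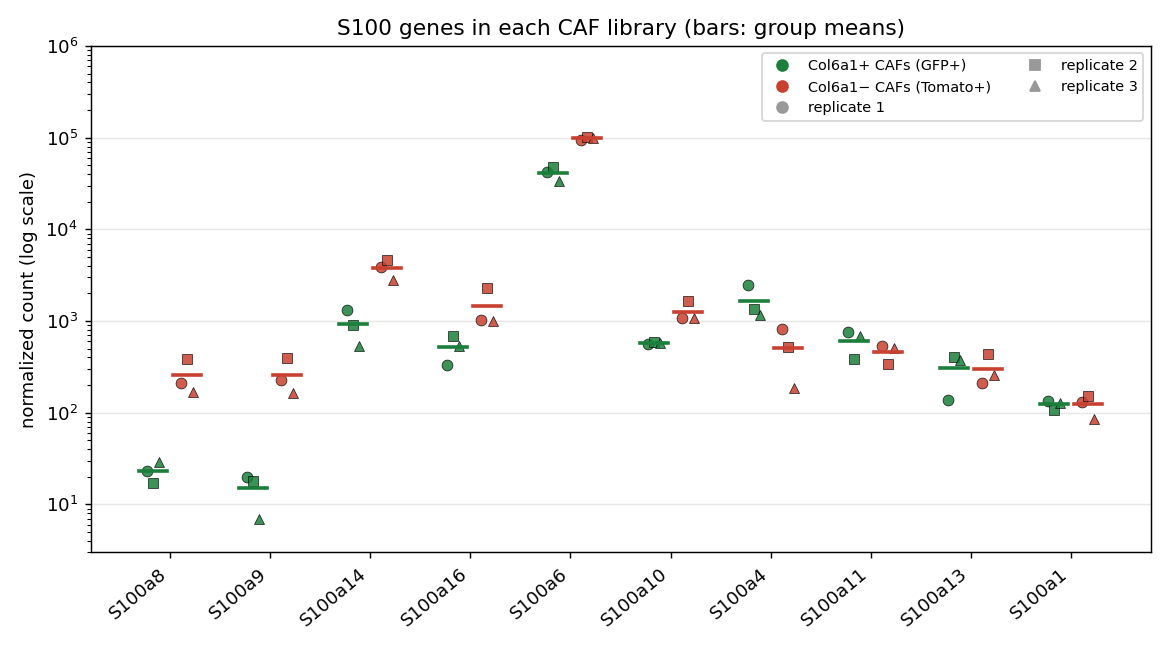
Normalized counts (log axis) of the 10 genes in each library. Points are libraries, shapes are replicate numbers and bars are group means. S100a8 and S100a9 lie at 7 to 29 counts in Col6a1+ CAFs and at 162 to 391 in Col6a1− CAFs, and S100a4 is the gene whose Col6a1+ libraries, from 1169, all lie above the Col6a1− libraries, up to 810.

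S100a8 and S100a9 encode the partners of calprotectin, a heterodimer that binds zinc and manganese and is measured clinically as a sign of gut inflammation. S100a8 (ENSMUSG00000056054, chr3:90668978-90670035, plus strand, mm10) had 23, 17 and 29 normalized counts in Col6a1+ CAFs and 211, 387 and 167 in Col6a1− CAFs. S100a9 (ENSMUSG00000056071, chr3:90692632-90695721, minus strand) had 20, 18 and 7 counts and 229, 391 and 162 counts. Both genes were thus low in every Col6a1+ library, and Col6a1− replicate 2 was the highest library for each. The means were 23 ± 6.0 and 255 ± 116 for S100a8 and 15 ± 7.0 and 261 ± 118 for S100a9 (SD, n = 3 each). The mean of the Col6a1− CAFs was 11.1-fold that of the Col6a1+ CAFs for S100a8 and 17.4-fold for S100a9. On the scale of log2(count + 1), which understates the change of low genes, the fold changes were -3.35 ± 0.46 (SE, limma adjusted p = 0.0030) and -4.06 ± 0.54 (adjusted p = 0.0026). These were the largest differences among the 10 genes.

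The counts of the pair were nearly equal within most libraries. S100a8 had 0.921 to 1.03 counts for each count of S100a9 in the Col6a1− CAFs, and 1.15, 0.944 and 4.14 in the Col6a1+ CAFs, where the last value rests on 7 counts of S100a9. Both calls needed all 3 Col6a1− libraries, as did most calls over all genes. Without Col6a1− replicate 1, 2 or 3, 0.0464%, 0.915% and 0.459% of all genes were called, against 4.62% with all libraries. The log2 fold changes without single libraries stayed at -3.61 to -3.01 for S100a8 and -4.35 to -3.62 for S100a9. Without any Col6a1− library in turn the adjusted p of both (limma) missed the threshold, at up to 0.0786 for S100a8 and 0.0892 for S100a9. Both stayed called when any single Col6a1+ library was left out.

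Neutrophils are the cells best known for both proteins, and the sort against CD45 was meant to exclude them. The list of 10 neutrophil markers summed to 386 to 906 counts in Col6a1+ CAFs and 582 to 1370 in Col6a1− CAFs, so the sums overlapped. Most of these counts came from Elane, with 272 to 661 counts and 287 to 429, and from Ly6g, with 33 to 194 and 205 to 751. Cxcr2, the third in abundance, had 81, 74 and 83 counts and 61, 118 and 86, with overlap. Mpo and Ngp had 0 counts in every library. Of the 8 neutrophil markers tested, Ly6g, Retnlg and Trem1 lay wholly lower in Col6a1+ CAFs, 5 overlapped and 0 lay wholly higher. Over all genes tested 11.6% lay wholly lower. Retnlg was the 1 that was called, with 0 counts in all Col6a1+ CAFs and 9, 16 and 11 in Col6a1− CAFs. It was named after its values were seen, as were Trem1, with 0, 0 and 1 against 12, 14 and 6, and Camp, with 0, 8 and 12 against 0, 2 and 0. The markers of other immune cells, 11 rows in all and led by Itgam, Fcer1g, Lyz2 and Tyrobp, summed to 39 to 60 counts in Col6a1+ CAFs and to 90 to 179 in Col6a1− CAFs. These sums did not overlap. None of the 11 rows was called, while 4 lay wholly lower in Col6a1+ CAFs and 7 overlapped. Ptprc, which encodes CD45, had 0, 2 and 0 counts in Col6a1+ CAFs and 7, 8 and 3 in Col6a1− CAFs, without overlap. The part of these cells in the S100a8 and S100a9 values was not tested. As in any bulk sample, fewer cells of a type and less RNA per cell cannot be told apart.

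S100a14 and S100a16 lie next to each other and are known mainly from epithelial cells. S100a14 (ENSMUSG00000042306, chr3:90526856-90528837, plus strand) had 1309, 915 and 536 counts in Col6a1+ CAFs and 3909, 4612 and 2766 in Col6a1− CAFs. The Col6a1− libraries all lay above the Col6a1+ ones, and replicate 3 was the lowest of both groups. The means were 920 ± 387 and 3762 ± 932 (SD, n = 3), a 4.09-fold difference, with a log2 fold change of -2.09 ± 0.36 (SE, limma adjusted p = 0.00997). Of the fits without a library, only that without Col6a1+ replicate 1 called it (adjusted p = 0.0309), and the others reached up to 0.114.

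S100a16 (ENSMUSG00000074457, chr3:90537254-90543151, plus strand) had 332, 693 and 532 counts in Col6a1+ CAFs and 1022, 2313 and 998 in Col6a1− CAFs. The groups did not overlap, and replicate 2 was the highest library of each. The mean of the Col6a1− CAFs was 2.78-fold that of the Col6a1+ CAFs. The log2 fold change was -1.42 ± 0.40 (SE), and the adjusted p of 0.0765 (limma) missed the threshold. It passed in 4 of 13 other fits, for instance at 0.0321 with limma-voom.

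The epithelial markers moved in the same direction as these genes. Cdh1, which encodes E-cadherin, had 2344 to 2999 counts in Col6a1+ CAFs and 10493 to 15452 in Col6a1− CAFs. Epcam, the gene of the sorted-out marker, had 615 to 1074 and 3107 to 4129. Krt18 had 137 to 277 and 1754 to 2234, and Lgals4 had 277 to 1008 and 1370 to 3509. The mean sum of the 12 markers was 4.29-fold higher in Col6a1− CAFs, beside 4.09-fold for S100a14. Cdh1 made up the largest part of the sum. The folds of the single markers ran from 1.18, with overlap, to 9.15 for Krt18, so the sum does not stand for each marker. Set against this sum in the same library, which was done after the values were seen, S100a14 had 22.1, 14 and 8.10 counts per 100 epithelial counts in Col6a1+ CAFs and 18.7, 13.1 and 10.8 in Col6a1− CAFs, so the groups overlapped. S100a16 had 5.61 to 10.6 and 3.89 to 6.55 counts per 100, which also overlapped. S100a8 stayed lower in Col6a1+ CAFs on this scale, at 0.259 to 0.438 against 0.651 to 1.10, and S100a9 at 0.106 to 0.338 against 0.632 to 1.11. Their counts differed by 11.1-fold and 17.4-fold, more than the divisor, so this restates the counts already given and is no separate result. Because the divisor was smaller in every Col6a1+ library, this scale raises all genes there alike. On it the Col6a1+ libraries lay wholly above the Col6a1− libraries for 38.1% of all genes tested, among them the other 6 of the 10, and wholly below for 2.16%, so no direction is read from it for those 6. The part of epithelial RNA in these differences was not tested.

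**Figure D3:**
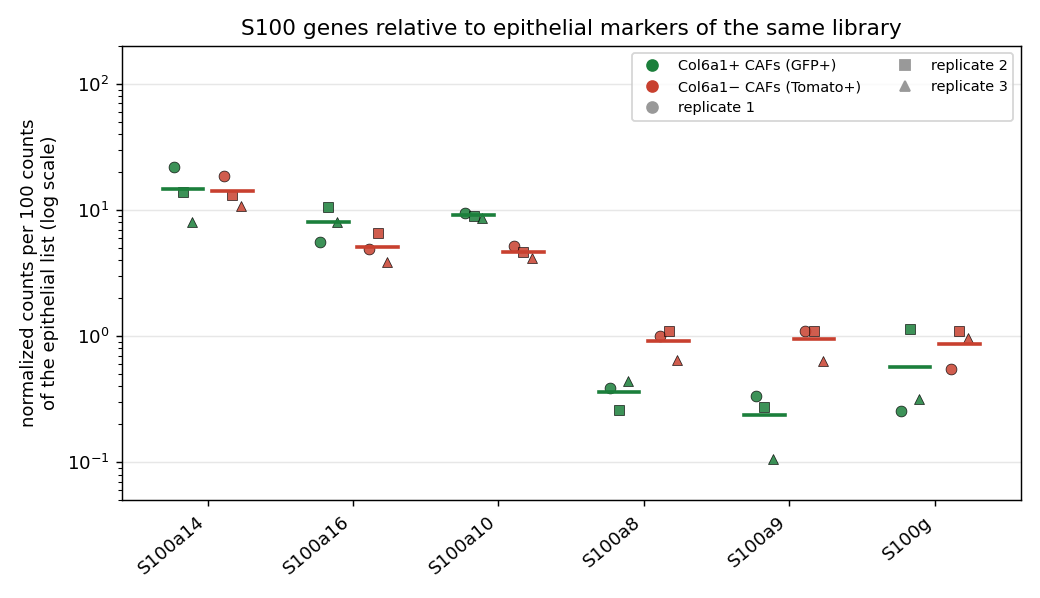
Normalized counts per 100 counts of the epithelial list in the same library (log axis) for 5 of the genes and S100g. The divisor is smaller in all Col6a1+ libraries, which raises every gene there. Points are libraries, shapes are replicate numbers and bars are group means. The groups overlap for S100a14, S100a16 and S100g, while S100a8 and S100a9 are lower in all Col6a1+ libraries. S100a10, at 8.67 to 9.55 against 4.20 to 5.14, lies above only through the divisor, since its counts were lower in Col6a1+ CAFs.

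The squamous list holds Sprr1a and a few other genes of the epidermal differentiation complex, while most of its genes lie on other chromosomes. It summed to 128 to 503 counts in Col6a1+ CAFs and 700 to 1013 in Col6a1− CAFs, and these sums do not describe that region. None of the 11 genes tested was called. Its most abundant gene, Sprr1a, a precursor of the cornified envelope, had 33, 198 and 304 counts and 291, 683 and 381 counts, so its groups overlapped, as did those of Krt13. Krt14 had 26 to 95 and 106 to 198 counts and Krt6a 0 to 63 and 88 to 140, without overlap.

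S100a6 encodes calcyclin, which binds annexins and the calcyclin-binding protein, and it was by far the most abundant of the 10 genes. S100a6 (ENSMUSG00000001025, chr3:90612882-90624181, plus strand) had 41791, 47806 and 33226 counts in Col6a1+ CAFs and 94471, 100901 and 98675 in Col6a1− CAFs. It took 0.970% to 1.51% of all normalized counts in Col6a1+ CAFs and 3.05% to 3.11% in Col6a1− CAFs. In 5 of the 6 libraries it had the highest count of any gene, and in Col6a1+ replicate 1 it came after Rgs5, which had 42173. The difference was 2.39-fold, with a log2 fold change of -1.27 ± 0.35 (SE, limma adjusted p = 0.0692), and the 2 groups did not overlap. The adjusted p was 0.0376 when genes with a mean of at least 10 counts were tested and 0.000121 with limma-voom. It passed in 4 of 13 other fits. With the block it was 0.0729, and 0.0524 with the block at a mean of at least 10. Without single libraries it was 0.112 to 0.227. The 10 genes together took 1.09% to 1.65% of all counts in Col6a1+ CAFs and 3.25% to 3.40% in Col6a1− CAFs. Of these counts 87.9% to 94.1% came from S100a6, and the other 9 genes made up 0.118% to 0.173% and 0.192% to 0.329% of each library.

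S100a10 encodes p11, which does not respond to calcium and forms a tetramer with annexin A2 at the plasma membrane, where it binds plasminogen. S100a10 (ENSMUSG00000041959, chr3:93555080-93564643, plus strand) had 565, 589 and 574 counts in Col6a1+ CAFs and 1074, 1650 and 1077 in Col6a1− CAFs. The Col6a1+ libraries lay close together, at a mean of 576 ± 12.1, below the Col6a1− libraries at 1267 ± 332 (SD, n = 3). The Col6a1− level was 2.20-fold higher, with a log2 fold change of -1.11 ± 0.28 (SE), and the adjusted p of 0.0509 (limma) lay just outside the threshold. It was within it in 5 of 13 other fits, down to 0.0215. Anxa2, its partner, had 3584, 3817 and 3955 counts and 4786, 6194 and 3507 counts, so its groups overlapped (log2 fold change -0.31 ± 0.29, adjusted p = 0.636).

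S100a4, a regulator of non-muscle myosin and of cell motility, was the gene with the opposite direction. S100a4 (ENSMUSG00000001020, chr3:90603771-90606045, plus strand) had 2464, 1356 and 1169 counts in Col6a1+ CAFs and 810, 519 and 185 in Col6a1− CAFs. Each Col6a1+ library lay above each Col6a1− library, and replicate 1 was the highest and replicate 3 the lowest of both groups. The means were 1663 ± 700.0 and 505 ± 313 (SD, n = 3), a 3.30-fold difference with a log2 fold change of 1.88 ± 0.50 (SE, limma adjusted p = 0.0651). The adjusted p fell to 0.0380 among genes with at least 10 counts in every library, and it was 0.00652 with the block and a mean of at least 10. It passed in 3 of 13 other fits, and without single libraries it was 0.124 to 0.259. The sums of the fibroblast and mural lists moved in the same direction, and their part in the S100a4 value was not tested. S100a4 counts are uncertain, since the overlapping protein-coding gene model Gm42674 on the same strand (chr3:90601904-90605885) had nearly the same count in each library, 2465, 1356 and 1169 against 810, 520 and 185, as reads counted for both would give.

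S100a11 binds annexin A1 and takes part in membrane repair, and S100a13 helps to release fibroblast growth factor 1 and interleukin 1α by a route that bypasses the usual secretory pathway. S100a1 is best known from cardiac muscle, where it binds the ryanodine receptor and the calcium pump of the sarcoplasmic reticulum. The groups overlapped for all 3 genes. S100a11 (ENSMUSG00000027907, chr3:93520488-93526287, plus strand) had 766, 381 and 687 counts in Col6a1+ CAFs and 535, 339 and 508 in Col6a1− CAFs, with replicate 2 lowest in both groups (log2 fold change 0.37 ± 0.35, SE, limma adjusted p = 0.636). S100a13 (ENSMUSG00000042312, chr3:90514435-90524581, plus strand) had 137, 403 and 379 counts and 209, 438 and 257, with replicate 1 lowest in both groups (log2 fold change -0.056 ± 0.46, adjusted p = 0.964). S100a1 (ENSMUSG00000044080, chr3:90511034-90514392, minus strand) had 135, 108 and 126 counts and 132, 152 and 86 (log2 fold change 0.030 ± 0.37, adjusted p = 0.983). The direction of S100a1 and S100a13 changed when single libraries were left out, and that of S100a1 also with library sums in place of the size factors.

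**Figure D4:**
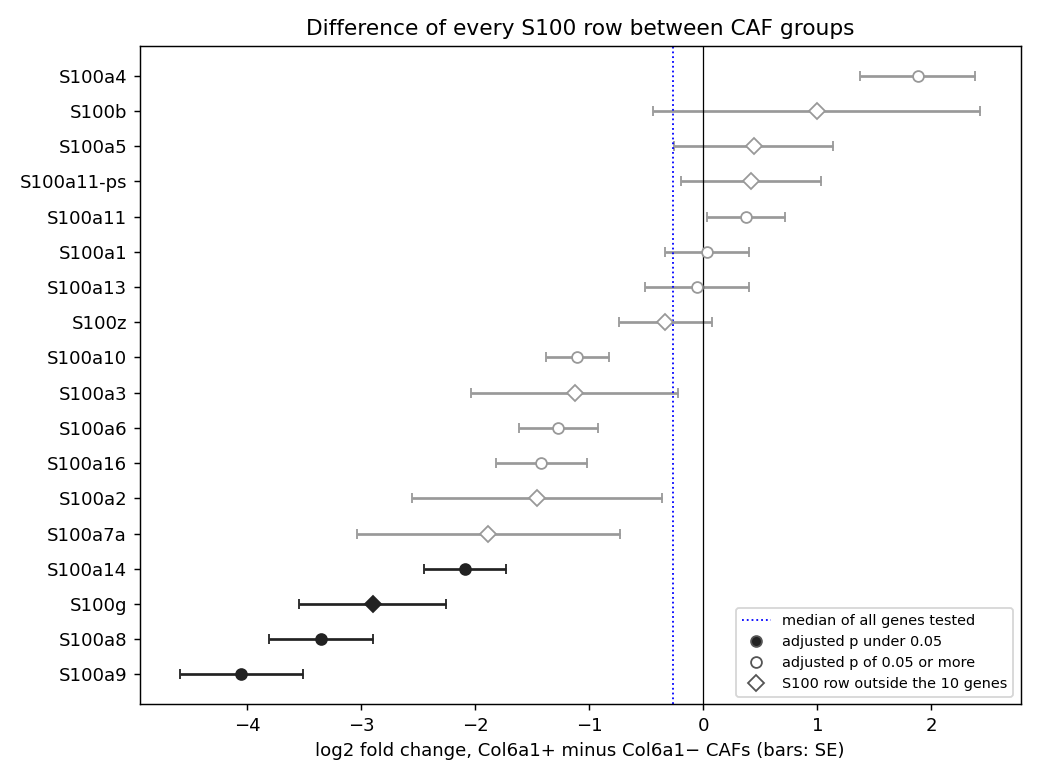
Log2 fold change (Col6a1+ minus Col6a1− CAFs) of all 18 S100 genes, with bars for the SE of limma. Filled points have an adjusted p under 0.05, diamonds are the 8 genes outside the 10, and the dotted line marks the median of all genes tested, -0.27. Values run from -4.06 for S100a9 to 1.88 for S100a4.

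The order of the genes by level was compared per kilobase of the gene model, although reads of transcript 3′ ends do not scale with length. In Col6a1+ CAFs S100a6 led with a mean of 9501 normalized counts per kb, followed by S100a4 with 1134, and neither overlapped with the gene after it. S100a14 (490), S100a11 (439), S100a16 (263), S100a13 (229) and S100a10 (210) came next, in counts per kb, and each overlapped with its neighbour in the order. S100a1, with 79.3 counts per kb, lay apart from the genes above and below it, and S100a8 (17.4) and S100a9 (11) overlapped at the bottom. In Col6a1− CAFs S100a6 again led, with 22747 counts per kb, followed by S100a14 with 2006, both without overlap with the next. S100a16 (731), S100a10 (461), S100a4 (344), S100a11 (330), S100a13 (225), S100a8 (192) and S100a9 (191) formed a run in which each overlapped with the next. S100a1 came last, apart from the run, with 79.5 counts per kb, so it lay above the S100a8 and S100a9 levels in Col6a1+ CAFs and below them in Col6a1− CAFs. In normalized counts without the length, S100a4 (1169 to 2464) overlapped with S100a14 (536 to 1309) in Col6a1+ CAFs and S100a10 ranked 5 there in place of 7. In Col6a1− CAFs S100a10 (1074 to 1650) did not overlap with S100a4 (185 to 810), and S100a8 and S100a9 changed places.

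Of the 8 other S100 genes, 1 was called, as lower, beside 4.62% of all genes tested, 1.96% as lower. S100g encodes calbindin-D9k, a calcium buffer of absorptive enterocytes, and had 15, 75 and 21 counts in Col6a1+ CAFs and 114, 390 and 247 in Col6a1− CAFs, a 6.77-fold difference (log2 fold change -2.90 ± 0.64, SE, limma adjusted p = 0.0304). With the block its adjusted p was 0.0620. Relative to the epithelial markers of the same library its groups overlapped, at 0.254 to 1.14 and 0.546 to 1.10 counts per 100. S100b, known from glia, had 0, 30 and 13 counts and 0, 4 and 10 counts. S100a7a, a relative of psoriasin of inflamed skin, had 0, 6 and 9 counts and 11, 7 and 36. The pseudogene S100a11-ps on chromosome 12 had 17, 41 and 37 counts and 19, 24 and 23, and may share reads with S100a11. S100a2, S100a3, S100a5 and S100z stayed at 0 to 13 counts in every library and were not called. S100b and S100g lie over genes of the opposite strand, and whether the counting used strand is not stated in the sources used here.

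All 10 genes lie on chromosome 3, 8 of them within 185 kb, and S100a11 and S100a10 2825 kb further on. Neighbours among the 10 had values alike in some pairs and different in others. S100a1 and S100a13 start 42 bases apart in opposite directions, and neither differed between the groups beyond the spread of the libraries. S100a14 starts 2274 bases after the end of S100a13 and was lower in Col6a1+ CAFs. It shared its direction with S100a16, with log2 fold changes of -2.09 and -1.42. S100a4 and S100a6 lie 6836 bases apart, with S100a5 between them, and had log2 fold changes of 1.88 and -1.27. S100a8 and S100a9 lie 22.6 kb apart on opposite strands, with log2 fold changes of -3.35 and -4.06. Of the 72 other genes listed between the outermost of the 10 and within 1 Mb of any of them, 56 had 0 counts in every library. The other 16 were tested and 0 were called by limma, against 2 with limma-voom and 2 by the looser criterion. Over all genes tested these shares were 4.62%, 6.86% and 14.7%. At a mean of at least 10 counts there were 3 of them, 1 of which is Gm42674. That gene nearly repeats the S100a4 counts and was 1 of the 2 called with limma-voom and by the looser criterion.

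**Figure D5:**
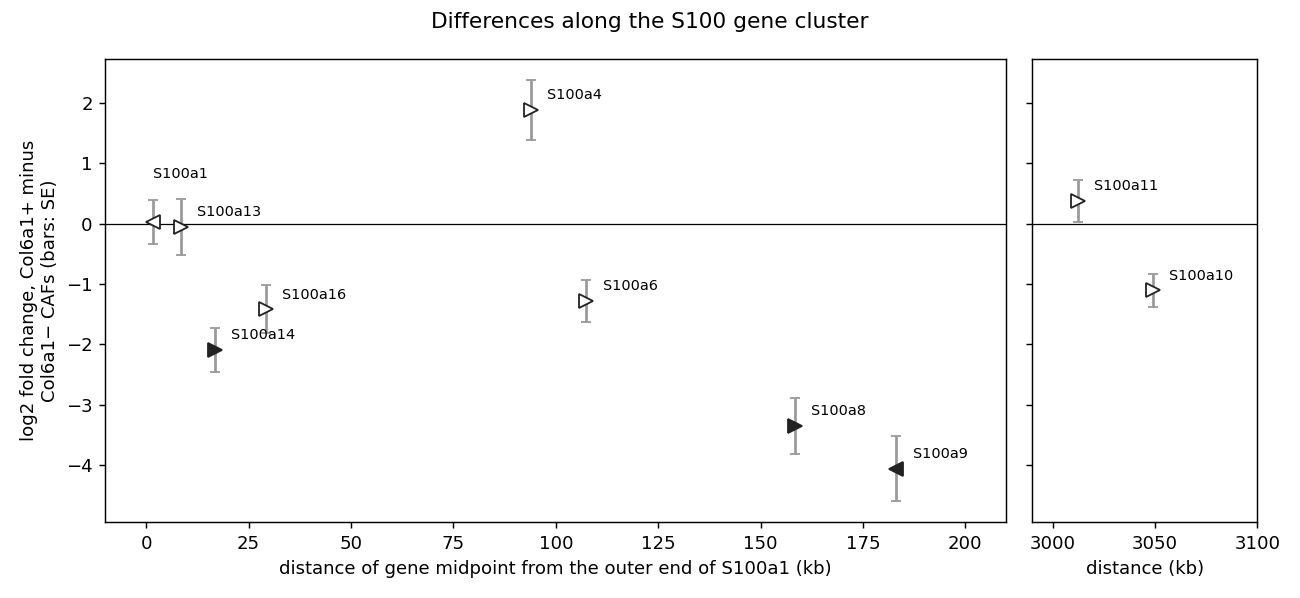
Log2 fold change (Col6a1+ minus Col6a1− CAFs) of the 10 genes against the distance of each gene's midpoint from the outer end of S100a1 in kb, with bars for the SE. Arrowheads point in the direction of transcription and filled ones have an adjusted p under 0.05. Neighbours among the 10 can have values of opposite sign, as S100a4 at 1.88 and S100a6 at -1.27, with S100a5 between them.

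The bases before the start of S100a8, S100a9 and S100a4 are shown because the first 2 genes had the largest differences, in the same libraries, and the third had the opposite direction. The sequences are the 250 bases before the start in RefSeq (GRCm38.p6, the mm10 build), 5′ to 3′ on the strand of the gene, for S100a8 at chr3:90668821-90669070, S100a9 at chr3:90695722-90695971 and S100a4 at chr3:90603520-90603769. Capitals mark TATAAA, the TATA box, and TTNNGNAA, the core of C/EBP sites, on either strand.
S100a8: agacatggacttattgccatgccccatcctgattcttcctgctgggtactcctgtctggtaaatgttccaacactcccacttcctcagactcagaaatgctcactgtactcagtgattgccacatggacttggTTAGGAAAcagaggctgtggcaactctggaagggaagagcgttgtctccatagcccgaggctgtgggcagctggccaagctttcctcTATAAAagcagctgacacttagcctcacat
S100a9: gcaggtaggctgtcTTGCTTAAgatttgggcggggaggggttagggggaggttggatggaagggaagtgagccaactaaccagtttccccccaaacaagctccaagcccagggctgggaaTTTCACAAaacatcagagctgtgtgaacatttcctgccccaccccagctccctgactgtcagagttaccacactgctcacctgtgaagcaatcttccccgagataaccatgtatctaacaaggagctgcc
S100a4: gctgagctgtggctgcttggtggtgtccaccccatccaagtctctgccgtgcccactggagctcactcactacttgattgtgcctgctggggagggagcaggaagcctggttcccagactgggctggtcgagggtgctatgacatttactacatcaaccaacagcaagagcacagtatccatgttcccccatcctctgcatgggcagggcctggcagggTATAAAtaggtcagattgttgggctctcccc

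RefSeq sequences were at hand for 8 of the 10 genes, with 2 starts for S100a16, and not for S100a10 and S100a14. TATAAA or its other strand TTTATA was found in 2 of the 8, S100a4 and S100a8, where it began 31 and 30 bases before the start, and in 12.4% of all 32851 windows of 250 bases. TTNNGNAA or TTNCNNAA was found in 2 of the 8, once in S100a8 and at 2 positions in S100a9, and in 36.8% of all windows. TGANTCA, the AP-1 site, which reads the same on both strands, was found in 2 of the 8, at 2 positions in S100a11 and in the window of 1 start of S100a16, and in 6.75% of all windows. These matches describe the letters only.

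Of 18 genes for receptors and binding partners of S100 proteins, 2 were called, both higher in Col6a1+ CAFs. Over all genes tested 4.62% were called, 2.66% as higher. Anxa6, an annexin that binds S100A6 among others, had 2089, 1106 and 1731 counts in Col6a1+ CAFs and 551, 447 and 253 in Col6a1− CAFs, a 3.94-fold difference (log2 fold change 2.00 ± 0.36, SE, limma adjusted p = 0.0126). Myh9, the non-muscle myosin heavy chain bound by S100A4, had 1678, 2774 and 3140 counts and 647, 1171 and 1000, a 2.69-fold difference (log2 fold change 1.42 ± 0.34, adjusted p = 0.0390). With the block their adjusted p was 0.0867 and 0.0650. The sums of the fibroblast and mural lists were higher in the same libraries, and their part was not tested. The median log2 fold change of the 18 genes was -0.057. Of the 18, 6 lay wholly higher in Col6a1+ CAFs and 2 wholly lower, beside 7.91% and 11.6% of all genes tested.

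The receptors were low or did not pass. Ager, the receptor RAGE, had 79, 20 and 13 counts in Col6a1+ CAFs and 7, 4 and 10 in Col6a1− CAFs, without overlap (limma adjusted p = 0.328). Tlr4 had 109, 63 and 39 counts and 73, 55 and 48, with overlap. Both were named after their values were seen. Bsg, a membrane protein that binds S100A9, had 181, 728 and 507 counts and 312, 998 and 765, with overlap. Myd88, the adaptor of Toll-like receptors, had 209 to 381 and 94 to 168 counts without overlap (log2 fold change 1.13 ± 0.37, limma adjusted p = 0.131). Among the intracellular partners, Atp2a2, the calcium pump bound by S100A1, had 865 to 1597 and 470 to 648 counts without overlap (log2 fold change 0.98 ± 0.31, adjusted p = 0.116). Anxa1, Ahnak, which binds the S100A10 and annexin A2 complex, and Sugt1, a target of S100A6, overlapped between the groups, and differed by -0.068, -0.085 and -0.045 on the log2 scale (adjusted p = 0.904, 0.907 and 0.958 by limma).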

How the data were processed

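The authors sequenced QuantSeq libraries of sorted CAFs on an Ion Proton, mapped the reads to mm10 with TopHat2 and Bowtie2 (per the labels and methods), counted them per gene with GenomicRanges and normalized them with DESeq size factors through metaseqR. The deposited table lists 49548 genes. It gives each library as log2(normalized count + 1), from which whole normalized counts were recovered. The authors also deposited a length-scaled signal, the normalized count per base of the gene model, used here per kb. The deposited p-values, false discovery rates, fold changes, group means and status flags of the authors were not used.

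With limma 3.58.1 in R 4.3.3, the 2 groups were compared on the deposited log2 values over the 26402 genes whose 6 values summed to 1 or more (eBayes with a mean-variance trend, prior degrees of freedom 6.47 and residual degrees of freedom 4), with Benjamini-Hochberg adjustment over all of them and a threshold of 0.05. The design assumed these log2 values. The labels do not say whether the libraries of 1 replicate number came from the same pool of mice, and p-values measure the spread between these libraries. Deviations from the group means over 13515 genes with a mean of at least 10 correlated at 0.245, 0.126 and 0.144 between libraries with the same replicate number. Between others they correlated at -0.245 to 0.150. Because 0.150 exceeds 0.126 and 0.144, the correlations do not settle the pairing. The numbers were read as pairs in the blocked fits. A count of 0 allows up to 3 counts, and no fold was computed where a group mean was at or under 3. Such limits cover counting error only.

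The 10 genes and all lists were chosen with earlier results of these data known. The genes named were the 10, the other S100 genes, binding partners that were called or had a mean of at least 100 counts, Col6a1, up to 4 most abundant genes of each marker list, and called neighbours with a mean of at least 10. Outside this rule Mpo, Ngp, Ptprc, Retnlg, Trem1, Camp, Ager, Tlr4 and Gm42674 were named after their values were seen. The lists covered epithelial, squamous, neutrophil, other immune, endothelial, erythroid, mural and fibroblast markers, and 1 further list is not reported here. Endothelial sums were 128 to 342 counts in Col6a1+ and 129 to 320 in Col6a1− CAFs, and erythroid sums 110 to 1713 and 281 to 482. Alternatives were library sums in place of size factors, filters on low counts, a pseudocount of 0.1 in place of 1, the replicate block, limma-voom, dropping 1 library at a time, and an unadjusted criterion. Promoters came from RefSeq. Tables and plots used Python 3.11.15, pandas 2.3.3, NumPy 2.4.6 and Matplotlib 3.10.9.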

Additional observations from a re-analysis of the deposited data

How the results depend on the processing

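The number of the 10 genes called, 3 in the report, was 5 with library sums in place of size factors (5.09% of all genes tested were called), 5 at a mean of at least 10 counts (10.5%), 6 of the 9 left at 10 counts in every library (12.2%), 7 with limma-voom (6.86%), 6 with the replicate block at a mean of at least 10 (13.7%), 7 by the unadjusted criterion (14.7%), 0 with the replicate block over 26402 genes and 0 to 3 without single libraries. It was 0 without any 1 of the Col6a1− libraries, where 0.0464%, 0.915% and 0.459% of all genes tested were called. With limma-voom 44.4% of the calls over all genes were higher in Col6a1+ CAFs, against 57.6% in the report. Calls over all genes, 1220 in the report, numbered 0 with the replicate block, 1852 with the block at a mean of at least 10, 3880 by the unadjusted criterion and 12 to 895 without single libraries, where the filter was applied again to the libraries left. The 1 other S100 gene called was lost (0) with the pseudocount of 0.1 and with the block, and 0 to 1 were called without single libraries. The 2 binding partners became 1 with the pseudocount of 0.1, 0 with the block, 5 by the unadjusted criterion and 0 to 1 without single libraries. The neighbours, 0 in the report, gave 1 call at 10 counts in every library, where 1 was tested. With the block at a mean of at least 10, 1 of the 3 tested was called. Both calls were Gm42674, which nearly repeats the S100a4 counts. Limma-voom and the unadjusted criterion gave 2 calls each, 1 of them Gm42674.

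Of 139 comparisons of the 10 genes under an alternative, 99 kept direction and side of the threshold, 20 passed it anew, 14 no longer passed it and 6 changed direction. The changes of direction concerned S100a1, at -0.024 with library sums, -0.022 with limma-voom and -0.21 to 0.20 without single libraries, and S100a13, at -0.33 to 0.45. Without single libraries S100b ranged from -0.023 to 2.45, Anxa1 from -0.17 to 0.062, Ahnak from -0.29 to 0.21 and Sugt1 from -0.23 to 0.089. The cause was not tested. The values of S100a2, S100a3, S100a5 and S100z rest on 0 to 13 counts in each library.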
